A study of Mus musculus with 2 samples.

Results

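Genes of the unfolded protein response and of the amino acid response driven by the transcription factor ATF4 were examined in cultured mouse dermal cells after knockdown of β-catenin. The members were listed by known function, with earlier results of these data known. They comprise 21 genes of the endoplasmic reticulum (ER), referred to as the ER arm, and 29 genes of the ATF4 arm, which includes the transfer RNA (tRNA) synthetases. Of these 50 genes, 49 had a probe set with a single gene symbol, among 19938 such genes on the array. The cells came from the dorsal skin of newborn C57BL/6 mice and were grown for 24 h in medium with 10% fetal bovine serum. The control group received a control small interfering RNA (siRNA) and the knockdown group received siRNAs against β-catenin, each at 10 nM for 48 h. Each group had 1 whole-transcript Affymetrix array, and the labels name neither the number of pups nor the number of cultures behind it. Both groups were transfected, and untransfected cells were not analysed here.

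Proteins that fold in the ER are watched by the sensors IRE1, PERK and ATF6. When unfolded proteins build up, IRE1 splices the messenger of XBP1, ATF6 is cleaved to release a transcription factor, and both raise the genes of ER chaperones and of the machinery that removes misfolded proteins. PERK phosphorylates the initiation factor eIF2α, as the amino acid sensor GCN2, the double-stranded RNA sensor PKR and the haem-regulated kinase HRI also do, and this slows general translation while favouring translation of ATF4. ATF4 then raises genes for amino acid synthesis, amino acid transport and tRNA charging. Dermal fibroblasts secrete large amounts of collagen, whose chains are folded in the ER and are rich in glycine and proline.

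Promoter sequences are shown for members of each arm because the arms differ in the DNA elements through which they are known to be regulated. The ER stress response element (ERSE), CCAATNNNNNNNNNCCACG, is bound by ATF6 with NF-Y, and ERSE-II, ATTGGNCCACG, is a shorter relative. The unfolded protein response element (UPRE), TGACGTGG, is bound by XBP1 and ATF6, and the CEBP-ATF response element (CARE), searched as TGATGNAA, is bound by ATF4 with C/EBP partners. These letters were searched on both strands in the 250 bases before each RefSeq gene start (GRCm38.p6), and 44 of the 50 members had an entry. In the sequences that follow, each read 5′ to 3′ along the gene and ending at the base before the start, capitals mark a match. The windows lie at chr2:34771840-34772089 on the plus strand (Hspa5), chr15:88819396-88819645 on the plus strand (Creld2), chr8:94386179-94386428 on the plus strand (Herpud1), chr6:7693210-7693459 on the minus strand (Asns), chr2:119350992-119351241 on the plus strand (Chac1) and chr1:191183334-191183583 on the minus strand (Atf3).
Hspa5: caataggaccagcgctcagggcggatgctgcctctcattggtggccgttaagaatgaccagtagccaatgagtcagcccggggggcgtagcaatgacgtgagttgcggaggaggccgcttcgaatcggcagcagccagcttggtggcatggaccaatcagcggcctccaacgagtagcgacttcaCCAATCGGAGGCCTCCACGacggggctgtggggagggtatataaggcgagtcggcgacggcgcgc
Creld2: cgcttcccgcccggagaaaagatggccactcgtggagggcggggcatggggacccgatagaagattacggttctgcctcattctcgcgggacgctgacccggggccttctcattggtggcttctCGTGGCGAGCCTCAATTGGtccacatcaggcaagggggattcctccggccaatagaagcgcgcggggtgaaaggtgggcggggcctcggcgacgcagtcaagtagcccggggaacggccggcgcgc
Herpud1: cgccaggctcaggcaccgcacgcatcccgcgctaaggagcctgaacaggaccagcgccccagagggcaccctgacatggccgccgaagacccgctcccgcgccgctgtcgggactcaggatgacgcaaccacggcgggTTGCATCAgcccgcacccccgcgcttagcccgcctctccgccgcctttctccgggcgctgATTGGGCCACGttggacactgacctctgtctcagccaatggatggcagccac
Asns: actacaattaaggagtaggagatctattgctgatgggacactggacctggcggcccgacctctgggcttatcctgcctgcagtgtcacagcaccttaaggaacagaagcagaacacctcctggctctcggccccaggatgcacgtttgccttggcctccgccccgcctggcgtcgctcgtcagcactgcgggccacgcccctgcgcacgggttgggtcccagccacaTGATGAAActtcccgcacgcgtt
Chac1: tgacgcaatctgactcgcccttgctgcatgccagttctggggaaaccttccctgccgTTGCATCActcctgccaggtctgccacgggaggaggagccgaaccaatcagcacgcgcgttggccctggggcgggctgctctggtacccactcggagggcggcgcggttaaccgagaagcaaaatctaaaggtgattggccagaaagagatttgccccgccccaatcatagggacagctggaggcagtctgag
Atf3: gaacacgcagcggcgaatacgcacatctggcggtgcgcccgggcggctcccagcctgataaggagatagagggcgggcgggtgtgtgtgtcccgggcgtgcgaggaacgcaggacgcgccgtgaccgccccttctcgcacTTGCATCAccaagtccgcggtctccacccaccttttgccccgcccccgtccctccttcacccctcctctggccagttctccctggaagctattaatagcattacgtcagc

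The ERSE was found in 35 of 27025 genes with a promoter entry (0.130%) and in 8 of the 18 ER arm members with one, namely Hspa5, Hsp90b1, Calr, Canx, Pdia6, Dnajc3, Creld2 and Syvn1. In Hspa5 it lay 65 to 47 bases before the start, and in Hsp90b1 it occurred at both 212 to 194 and 107 to 89 bases before it. No ATF4 arm member of the 26 with an entry held an ERSE. The CARE letters are short and were found in 3.91% of all genes, and in 8 of the 26 ATF4 arm members: Atf3, Nupr1, Chac1, Vldlr, Asns, Slc7a11, Aars and Gars. Slc7a11 held 2 CARE matches, 66 to 59 and 47 to 40 bases before its start. Herpud1 was the one ER arm member with a CARE match, and it also held the ERSE-II, which 0.0370% of all genes held. The UPRE letters were in no member's window and in 0.603% of all genes. No 2 matches in a member's window overlapped. A match describes the letters only, and binding was not measured.

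The target transcript was lower in the knockdown. Ctnnb1, which encodes β-catenin, went from 10.48 in the control to 9.34 after β-catenin siRNA (log2 values), so that 45.2% of the control signal was left. All 13 measured fibroblast markers passed the level filter described next, with control values from 6.60 to 12.8. Of these, 8 were higher and 5 lower, and Lum (2.44-fold), Dcn (1.79-fold) and Pdgfra (1.69-fold) were at least 1.5-fold higher. Among all genes that passed, 52.8% were lower and 45.8% higher. At least 1.5-fold higher were 2.76% of them, and at least 1.5-fold lower 1.84%. Of all 16 keratinocyte markers 13 were higher, 2 lower (Krt15 and Lor, neither of which passed) and 1 equal. Their summed linear signal went from 970 to 1453. The 8 keratinocyte markers that passed, 7 of them on both arrays, were all higher. Krt5 (2.02-fold), Krt17 (1.73-fold), Cdh1 (1.69-fold) and Krt14 (1.54-fold) were at least 1.5-fold higher. Of 8 pericyte and smooth muscle markers 5 passed. Cnn1 (2.13-fold), Myh11 (1.60-fold), Tagln (1.26-fold) and Acta2 (1.09-fold) of these were lower and Cspg4 was 1.15-fold higher, and the summed signal of the 8 went from 14372 to 11899. Few markers of other types passed: 3 of 8 for melanocytes (2 on both arrays), 2 of 10 for endothelium (1 on both), 2 of 9 for skeletal muscle (2 on both) and none of 5 for Schwann cells. Counted without the filter, 6 of 8 melanocyte markers were lower and 2 higher, and 6 of 9 skeletal muscle markers were lower and 3 higher. Without the filter, 10466 of all 19938 genes were lower and 8304 higher. Of 10 endothelial markers 4 were lower, 4 higher and 2 equal. Of 13 macrophage markers Lyz2 alone passed, and only through the β-catenin siRNA array (4.75 and 5.38). Without the filter, 7 of the 13 were lower, 5 higher and 1 equal. The part of these cell types in the differences that follow was not tested, and in a mixed culture fewer cells of a type and less RNA per cell cannot be told apart.

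Most members were slightly lower after β-catenin siRNA, and the ATF4 arm was lower by more than the ER arm. A gene was kept if the higher of its 2 log2 values reached 5.13, the median of all gene means, which left 10197 genes, and all 49 measured members passed on both arrays (5.86 to 11.89). Of the 49, 42 were lower by any amount, as were 52.8% of all kept genes, and 7 were higher, as were 45.8% of all kept genes. The median difference (β-catenin siRNA minus control, log2) was -0.19 for the members and -0.02 for all kept genes. At least 1.2-fold lower were 15 members (30.6%) against 13.7% of kept genes, and at least 1.5-fold lower were 3 members (6.12%) against 1.84%. Only Dnajb9 was at least 1.2-fold higher, against 11.7% of kept genes, and no member was 1.5-fold higher, against 2.76% of kept genes. With 1 array per group each difference is a single subtraction, no test of it is possible, and the spread between cultures is unknown. As a guide to scale, differences of all kept genes had a robust standard deviation of 0.22, which mixes array noise, differences between cultures and any effect of the siRNA. This spread depends on level. Among the 500 kept genes nearest in level it was 0.16 for bright members such as Hspa5 and 0.27 for the dim member Ern1.

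The median was -0.10 for the 21 genes of the ER arm and -0.22 for the 28 measured genes of the ATF4 arm. In the ER arm 16 genes were lower (76.2%) and 5 higher, and in the ATF4 arm 26 were lower (92.9%) and 2 higher. The shares of all kept genes were 52.8% lower and 45.8% higher. At least 1.2-fold lower were 4 of 21 ER arm genes (19.0%) and 11 of 28 ATF4 arm genes (39.3%), against 13.7% of kept genes, a share that the ER arm's is near. The arms overlapped: 25 of the 28 ATF4 arm genes had a difference below the ER arm's median, but only 8 lay below its lowest member, Atf6, and 3 ER arm genes lay above the highest ATF4 arm member. The gap between the arm medians, -0.12, comes from 1 pair of arrays.

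**Figure D1:**
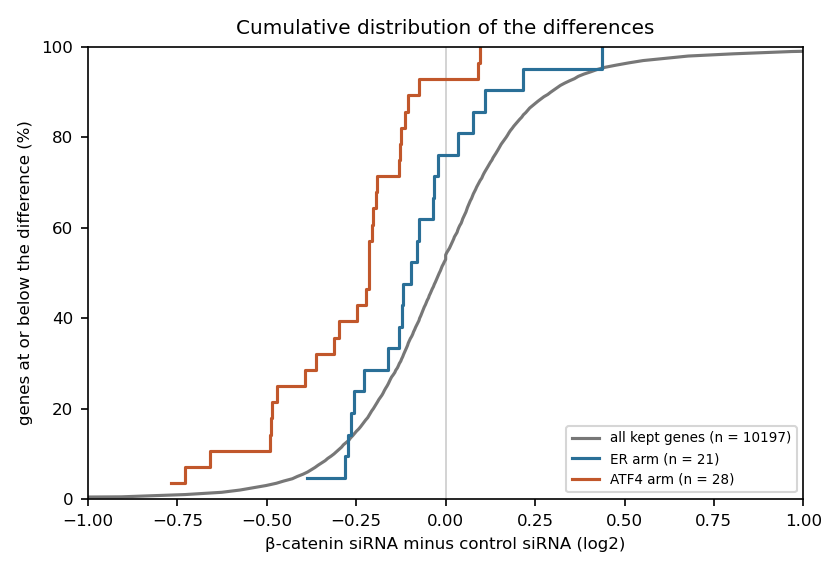
Cumulative share of genes (y axis, %) at or below each difference between the β-catenin siRNA and control siRNA arrays (x axis, log2), for all 10197 kept genes (grey), the 21 ER arm genes (blue) and the 28 ATF4 arm genes (orange). The blue line lies left of the grey line over most of its range. The orange line lies left of both except in the lowest tail, below -0.77, where it has no genes. The medians (in the order grey, blue, orange) are -0.02, -0.10 and -0.22.

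The sensors and their transcription factors came out apart from one another. Atf6, which encodes the sensor that becomes a transcription factor, had a control log2 value of 7.60 and a β-catenin siRNA value of 7.21, and was the lowest gene of the ER arm at 1.31-fold lower. Ern1 (IRE1) had values of 5.96 and 5.86, and Xbp1, whose messenger IRE1 splices, had 9.17 and 9.13. Eif2ak3, which encodes PERK, was slightly higher, from 7.38 to 7.49. Apart from Atf6, these genes differed by at most 0.11. Gene-level values do not separate spliced from unspliced Xbp1.

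Among the abundant chaperones, differences were small and had no common direction. Hspa5, which encodes BiP, the Hsp70 chaperone that also holds the sensors inactive, had values of 11.43 and 11.31. Hsp90b1 (GRP94, the ER Hsp90) had 11.84 and 11.76, and the lectin chaperone genes Calr and Canx had 11.17 and 11.01, and 11.43 and 11.50. These 4 lay between -0.16 and 0.08 in their differences, and all held an ERSE. Of the disulfide isomerase genes, Pdia3 was higher, from 11.68 to 11.89, Pdia6 lower, from 11.37 to 11.25, and Pdia4 nearly equal at 10.83 and 10.81. A second, dim probe set of Pdia4 read 3.89 and 4.18, opposite in sign to the one used.

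Another 5 ER arm genes were lower by similar amounts. Sdf2l1, a cofactor of BiP, went from 7.61 to 7.33, and Hyou1, a nucleotide exchange factor of BiP, from 9.09 to 8.83. Creld2, a secreted ER stress protein, went from 8.50 to 8.23, and Manf, a factor that binds BiP and is secreted under stress, from 8.56 to 8.29. Herpud1, which helps to assemble the ER degradation complex, went from 9.68 to 9.45. These 5 genes, picked out after their values were seen, were 1.17-fold to 1.22-fold lower. Creld2 at 1.202-fold was just inside the 1.2-fold limit and Hyou1 at 1.194-fold just outside it.

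The co-chaperones of BiP differed from each other. Dnajb9 (ERdj4), known as an XBP1 target that also represses IRE1, went from 7.20 to 7.64 and was 1.35-fold higher, a difference that 4.63% of kept genes reached or exceeded. Dnajc3 (p58IPK), which restrains PERK, went from 9.64 to 9.56 on 2 probe sets with identical values. The remaining genes of ER-associated degradation stayed close to control. Syvn1, the ubiquitin ligase HRD1, had 6.91 and 6.78, its partner Sel1l 9.27 and 9.24, and Edem1, which extracts misfolded glycoproteins from folding cycles, 9.03 and 9.06. Of the 18 ER arm members with a promoter entry, the 8 with an ERSE had a median of -0.12 (7 lower). The 10 without, which include Herpud1 with its ERSE-II, had -0.03 (6 lower). Of all kept genes 52.8% were lower. Atf6 (-0.39), Hyou1 (-0.26) and Manf (-0.27) had no entry and are in neither group.

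**Figure D2:**
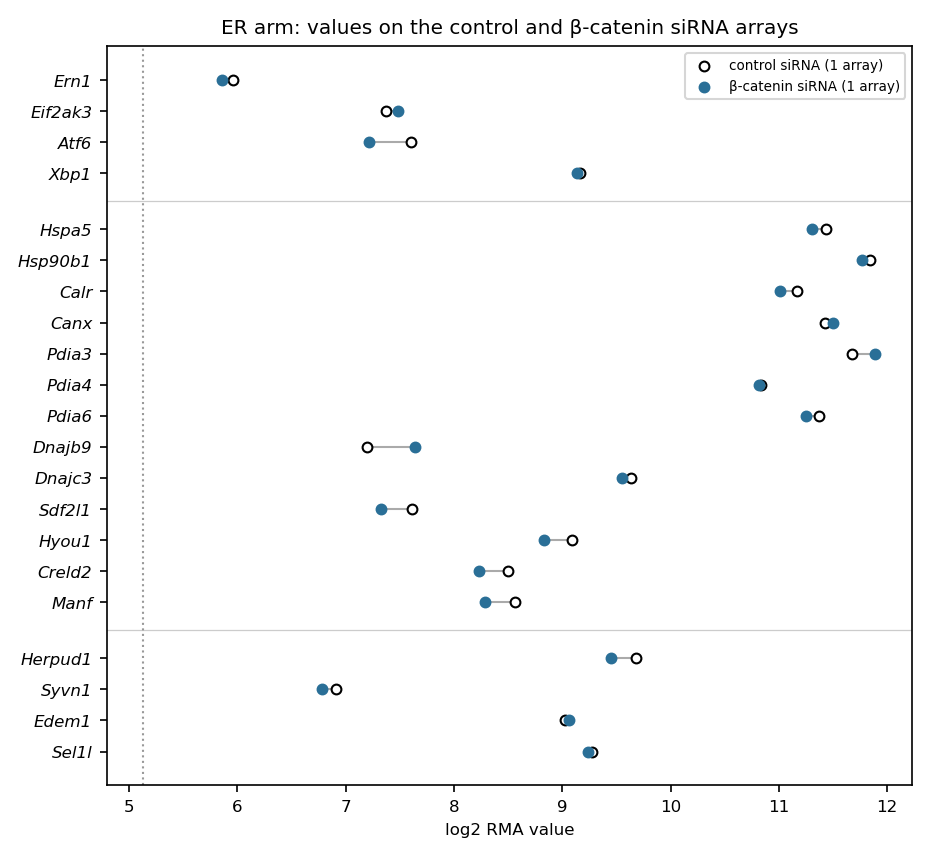
Log2 RMA values (x axis) of the 21 ER arm genes on the control siRNA array (open circles) and the β-catenin siRNA array (blue), grouped from top to bottom into sensors with their factors, folding factors, and degradation. The dotted line is the level filter at 5.13. Blue lies left of the open circle for 16 genes, with the widest gap to the right at Dnajb9 and to the left at Atf6.

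In the ATF4 arm, the messenger of the master factor was little lower while several of its targets were lower by more. Atf4 had values of 9.43 and 9.30, a difference of -0.13. This lies within 0.19, the robust standard deviation among the 500 kept genes nearest in level. Some other ATF4 arm genes also lay within theirs, such as Asns (-0.127 against 0.162) and Shmt2 (-0.114 against 0.186). Control of ATF4 is largely translational, and its protein was not measured. Atf3, a stress-induced repressor of the same family, went from 7.00 to 6.24 and was the lowest member at 1.70-fold lower. At or below its difference of -0.77 lay 0.785% of kept genes. Ddit3, which encodes the pro-apoptotic factor CHOP, went from 7.70 to 7.31 (1.31-fold lower). The ATF4 partner gene Cebpg went from 8.16 to 7.95 and Nupr1, a small stress-induced chromatin protein, from 8.91 to 8.71. Atf5 was the exception, at 9.64 and 9.73.

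All 6 stress effectors and feedback regulators were lower, as were 52.8% of all kept genes. Their median of -0.42 was the lowest of the 8 role groups. Ddit4 (REDD1), an inhibitor of mTORC1 that hypoxia also induces, went from 8.24 to 7.51 (1.66-fold lower). Vldlr, a lipoprotein receptor induced through ATF4, went from 7.91 to 7.42 (1.41-fold lower). Chac1, which degrades glutathione, went from 8.54 to 8.07 (1.39-fold lower). Trib3, a pseudokinase that feeds back on ATF4, went from 9.62 to 9.26, and Sesn2, a leucine sensor that restrains mTORC1, from 8.56 to 8.26. Ppp1r15a (GADD34), a subunit of the phosphatase that removes the phosphate from eIF2α, went from 7.44 to 7.24. At 1.15-fold lower, it had the smallest difference of the group. Of the 6 genes, 5 were at least 1.2-fold lower (83.3%, against 13.7% of kept genes).

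All 6 genes of amino acid and one-carbon synthesis were lower too, as were 52.8% of all kept genes, with a median of -0.35 for the 6. Serine is made by Phgdh, Psat1 and Psph in turn. Phgdh went from 8.72 to 8.24 (1.40-fold lower), Psat1 from 10.56 to 10.35 (1.16-fold lower) and Psph from 7.03 to 6.38 (1.58-fold lower). Serine feeds the mitochondrial folate pathway, of which Mthfd2 went from 9.14 to 8.65 (1.40-fold lower) and Shmt2 from 8.96 to 8.85. Asns, the asparagine synthetase gene whose CARE match was shown, had 11.34 and 11.21. Atf3, Ddit4 and Psph were the 3 members at least 1.5-fold lower, and Vldlr was the next, at 1.41-fold. A probe set that Phgdh shares with a predicted gene, not used here for that reason, read 8.76 and 8.39.

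The transporters and tRNA synthetases were lower by less. Slc7a5 (LAT1), which carries large neutral amino acids, went from 10.56 to 10.25 (1.24-fold lower), and its heavy chain partner Slc3a2 from 11.32 to 11.20. The cationic amino acid transporter gene Slc7a1 went from 7.90 to 7.68, and Slc7a11, the cystine-glutamate exchanger, from 6.35 to 6.16. None of the 6 measured member synthetases reached 1.2-fold, against 13.7% of kept genes at least 1.2-fold lower and 11.7% at least 1.2-fold higher. Gars (glycine) went from 10.79 to 10.54, Mars (methionine) from 9.58 to 9.36 and Nars (asparagine) from 11.61 to 11.42. Wars (tryptophan) had 8.90 and 8.80, Eprs (glutamate and proline) 9.95 and 9.88, and Sars (serine) was higher, at 10.71 and 10.80. Aars (alanine) shares its probe set with Exosc6, and that probe set read 9.38 and 9.29. The median of the 6 measured synthetases was -0.15. Without them, the ATF4 arm had a median of -0.26, with 11 of 22 genes at least 1.2-fold lower (50%, against 13.7% of kept genes).

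**Figure D3:**
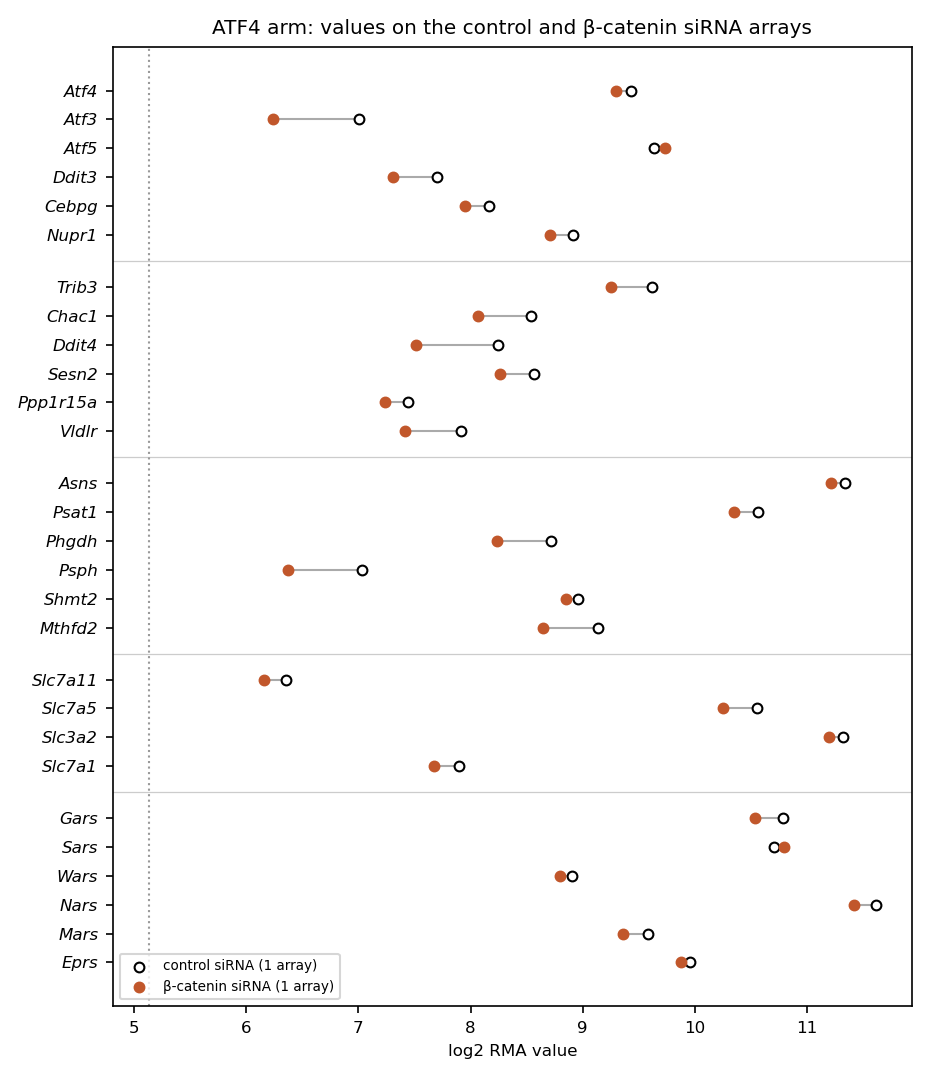
Log2 RMA values (x axis) of the 28 measured ATF4 arm genes on the control siRNA array (open circles) and the β-catenin siRNA array (orange), grouped from top to bottom into transcription factors, stress effectors, synthesis enzymes, transporters and tRNA synthetases. The dotted line is the level filter at 5.13. Orange lies left of the open circle for 26 genes, and right of it for Atf5 and Sars.

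**Figure D4:**
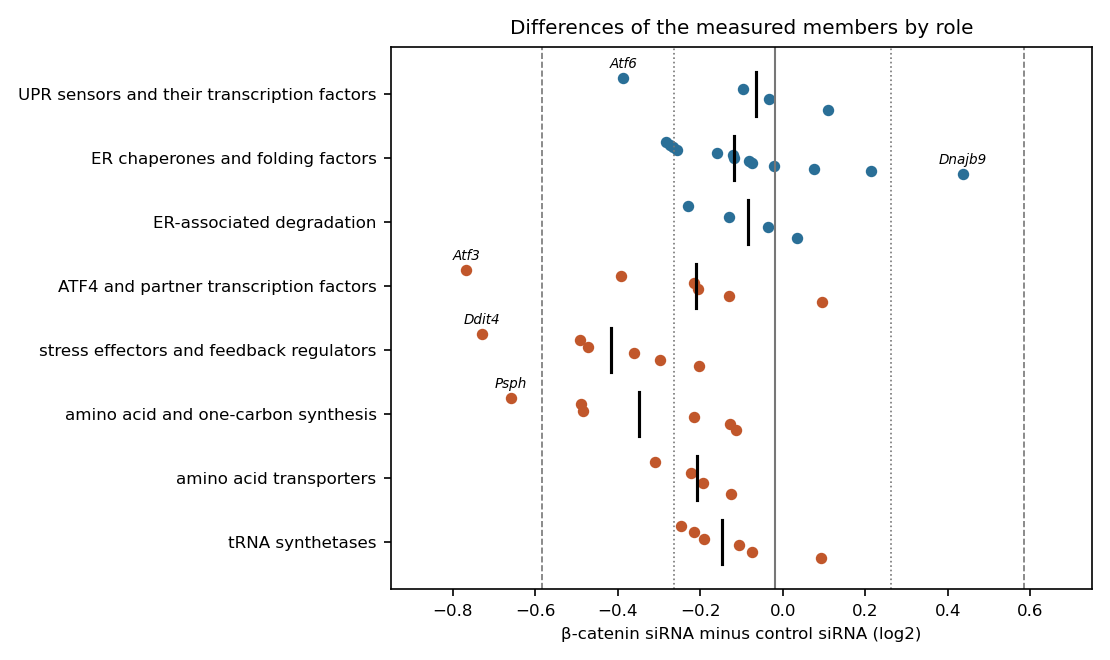
Difference of each measured member between the β-catenin siRNA and control siRNA arrays (x axis, log2) by role group (y axis), for the ER arm (blue) and the ATF4 arm (orange). Black bars are group medians, the solid line is the median of all kept genes (-0.02), dotted lines mark 1.2-fold and dashed lines 1.5-fold. Stress effectors (-0.42) and synthesis enzymes (-0.35) have the lowest medians, and Atf3, Ddit4 and Psph lie beyond the dashed line.

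Differences were also set beside the CARE matches. The 7 measured ATF4 arm members with a match were all lower, with a median of -0.25. Of the 18 without one 16 were lower, with a median of -0.22. Slc7a5 (-0.31), Wars (-0.11) and Nars (-0.19) had no promoter entry and are in neither group. Among 180 kept genes that held the CARE letters and were not members, 56.7% were lower, against 52.8% of all kept genes, with a median of -0.03. Of the 4 kept genes with an ERSE that were not members, 1 was lower.

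Other genes of the same pathways, listed by function, had a median closer to that of all kept genes. Of 74 such genes 68 were measured and 65 kept, of which 44 were lower (67.7%, against 52.8% of all kept genes) and 21 higher, with a median of -0.08. On the ATF4 side 11 of 35 kept genes were at least 1.2-fold lower (31.4%, against 13.7% of kept genes) and 2 at least 1.2-fold higher, with a median of -0.12. Of these, 1 was at least 1.5-fold lower, a share near the 1.84% of kept genes. On the ER side 4 of 25 were at least 1.2-fold lower (16.0%), near the share of all kept genes. Another 2 of the 25 were at least 1.2-fold higher, and the median was -0.07. For both sides, the 1.2-fold higher counts stand beside 11.7% of all kept genes. Lower genes were 2 of 5 among the eIF2α kinases and phosphatase parts (median 0.15), 2 of 6 in the CREB3 group (median 0.07) and 3 of 6 among further transporters (median -0.07). Stc2, a secreted glycoprotein induced by ER stress and by hypoxia, had the largest difference, from 6.54 to 5.50 (2.05-fold lower). The amino acid enzyme genes Gpt2 (alanine aminotransferase) and Cth (cystathionine γ-lyase) went from 8.35 to 7.84 and from 7.69 to 7.26. Slc1a4, a neutral amino acid transporter, went from 8.96 to 8.53. Of the 12 other cytosolic synthetases kept, 10 were lower, with a median of -0.11, and Farsa (phenylalanine) was the one at least 1.2-fold lower, at 1.23-fold.

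The largest positive differences among these genes were in 2 regulators. Eif2ak2 encodes PKR, the eIF2α kinase that binds double-stranded RNA and is itself induced by interferon. It went from 6.67 to 7.62 (1.93-fold higher), the only eIF2α kinase past 1.2-fold. Eif2ak1 (HRI) had 7.12 and 7.28, Eif2ak4 (GCN2) 6.07 and 5.90, and Eif2ak3 (PERK) the values given earlier. Crebrf, a negative regulator of the ER stress factor CREB3, went from 5.63 to 6.23 (1.52-fold higher). Phosphorylation of eIF2α was not measured, so these values give transcript levels of the kinases only.

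**Figure D5:**
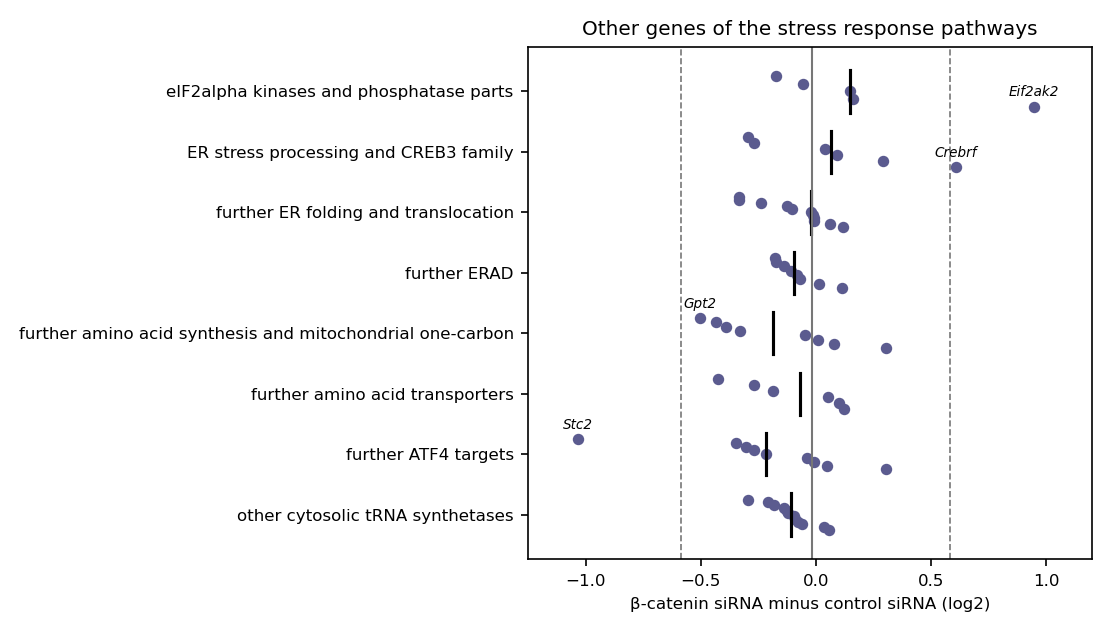
Difference between the β-catenin siRNA and control siRNA arrays (x axis, log2) of the 65 kept other pathway genes by group (y axis). Points are genes, black bars are group medians, the solid line is the median of all kept genes and dashed lines mark 1.5-fold. Stc2 (-1.04) lies beyond the lower line, and Eif2ak2 (0.95) and Crebrf (0.61) beyond the upper one.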

How the data were processed

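Labelled target from 300 ng of total RNA was hybridised to 1 Affymetrix array per group. The deposited values are on the log2 scale, judged from their range (0.485 to 13.5); the submitters' processing notes name RMA alone, and the software, its version and filters were not stated in the labels used here. RMA equalises the arrays (sorted values differed by at most 0.123), so differences are relative to other genes. It can shrink differences of dim probe sets, and whether it did so here was not tested. The differences of dim genes spread more widely than those of bright genes. Of 28944 probe sets, the platform annotation gave 1 symbol to 21789, several to 1621 and none to 5534; 21698 of the first matched RefSeq (GRCm38.p6) for current symbols. Only single-symbol probe sets were used, and per gene the one with the highest mean of both arrays. Promoters are RefSeq's; 6 members had no entry (Atf6, Hyou1, Manf, Slc7a5, Wars and Nars).

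Differences, medians and counts at 1.2-fold and 1.5-fold were computed with Python 3.11.15 and pandas 2.3.3, and the counting was tested on simulated data. No test, p-value or standard deviation between replicates was possible. All members could be named, with the eIF2α kinases and the 6 other pathway genes of largest absolute difference. The members and lists were chosen with earlier results of these data known. Level filters, probe set choice, centring and arm composition were varied.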

Additional observations from a re-analysis of the deposited data

How the results depend on the processing

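With 1 array per group, no replicate could be left out and no paired analysis was possible because there are no replicates. Over the alternatives for level filter, probe set, centring and arm composition, the members' median ranged from -0.20 to -0.17, the ER arm's from -0.12 to -0.08 and the ATF4 arm's from -0.26 to -0.18. The ATF4 median stayed below the ER median (gap -0.16 to -0.10). Members lower by any amount numbered 37 to 43, and those at least 1.2-fold lower 12 to 15. With the 75th percentile of gene means (7.12) as the minimum, 44 members were left, 1 was at least 1.5-fold lower and the median of the synthesis genes was -0.21, as Atf3 and Psph have lower values than that minimum. The mean of both Pdia4 probe sets gave 0.14 in place of -0.02. Adding the probe set shared by Aars was chosen after seeing the data. Centring on the median removed the -0.02 of all kept genes. Detection above background was not used here, so dim values have no stated floor.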
